A study of Bos taurus with 12 samples.

Results

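bta-miR-335, the mature bovine microRNA (miRNA) miR-335, was followed across small RNA sequencing libraries of granulosa cells, the steroid-producing cells that line the ovarian follicle and surround the oocyte. Its reads were taken from the entries whose mature name is bta-miR-335. This was 1 of the 755 mature names and 1 of the 906 entries in the count files. It was chosen by its normalized counts in these same libraries, which had already been seen to be higher in SF than in DF, so its levels are described without a test.

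Granulosa cells came from subordinate follicles (SF) and dominant follicles (DF), classed by their size, and were collected 3 days (day 3) or 7 days (day 7) into the estrous cycle, giving 4 groups of 3 biological replicates. The paper set larger size limits for both classes at day 7 than at day 3. In comparisons between days, the day and the size limits of the class can therefore not be told apart. All groups came from Simmental heifers whose estrus had been synchronised with a prostaglandin analogue and a GnRH analogue, and different heifers were slaughtered on the 2 days. No group carried a genetic change or a further treatment, and the ages of the animals were not given in the sources used here. Per the methods of the study, cells recovered from follicular fluid were pooled by follicle size, so a library can hold cells of several follicles. The methods count no more dominant follicles at day 7 than there are libraries of that group, so each of those libraries may stand for a single follicle.

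A miRNA is a short RNA that guides the silencing machinery to complementary sites in mRNAs, where it lowers translation and mRNA stability. miR-335 is processed from a hairpin inside MEST, also named PEG1, an imprinted gene transcribed mainly from the paternal allele, and is often studied together with that host gene. In cattle, follicles are recruited in waves, and in each wave 1 follicle becomes dominant while the subordinate ones stop growing and undergo atresia. The dominant follicle is still being selected early in the wave and is established later in it.

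The libraries held 160418 to 405129 reads on known miRNAs when each mature name was counted at 1 entry. At this depth 3 reads corresponded to 0.000741% to 0.00187% of a library, a limit that covers counting error only. Normalized counts are raw reads divided by a size factor per library, obtained as the median of ratios over the 12 libraries. Replicates of every group differed by more than counting error, at chi-square values of 11.3 to 152 for each degree of freedom.

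miR-335 was read in all 12 libraries. The SF granulosa cells of day 3 had 396, 173 and 269 raw reads in replicates 1, 2 and 3, and the DF granulosa cells of day 3 had 197, 289 and 129. In SF at day 7 it had 282, 335 and 496 raw reads. In DF at day 7 it had 7, 9 and 7. The DF libraries of day 7 were therefore the ones with few reads, and each of the other 9 libraries had over 100.

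After scaling for depth, the normalized counts of miR-335 were 362, 239 and 337 in SF at day 3, with a mean of 313 ± 65.1 (SD, n = 3). They were 152, 181 and 129 in DF at day 3, with a mean of 154 ± 26.0 (SD, n = 3). They were 258, 347 and 496 in SF at day 7, with a mean of 367 ± 120 (SD, n = 3). In DF at day 7 they were 6.14, 15.4 and 6.46, with a mean of 9.32 ± 5.23 (SD, n = 3). The order of the means was SF at day 7, SF at day 3, DF at day 3 and DF at day 7. The groups of SF at the 2 days overlapped and did not differ beyond their spread, whereas every other pair of groups was separated, with the lowest library of the higher group above the highest library of the lower group.

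**Figure D1:**
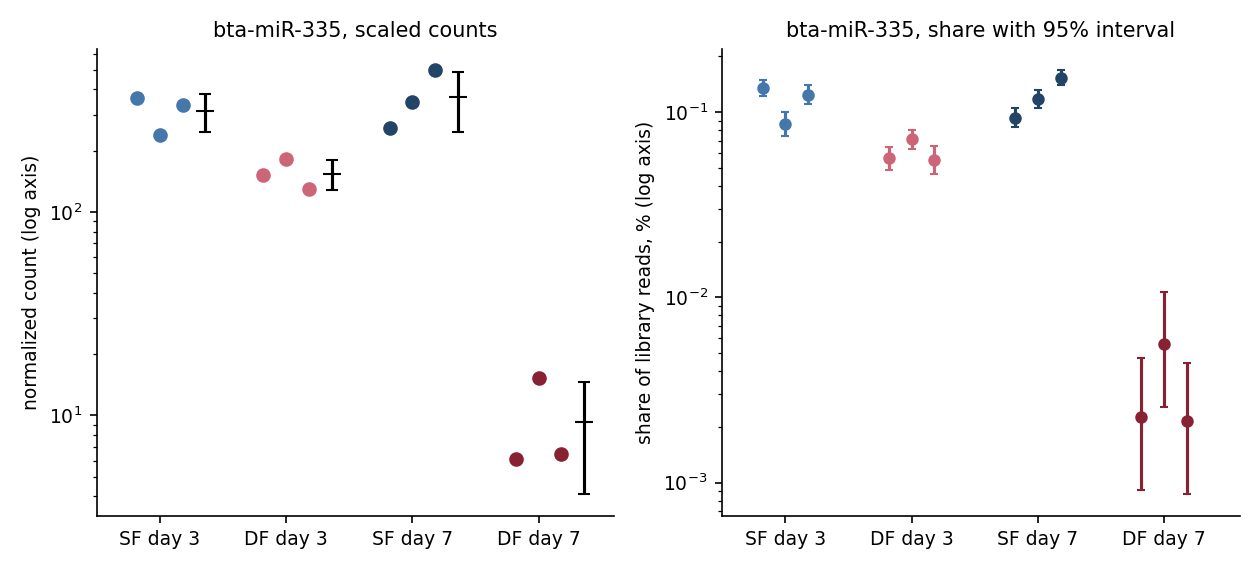
Left, normalized counts of miR-335 (log axis) in the 12 libraries by group, with points for libraries and black bars for the mean ± SD (n = 3); right, its share of the library's reads in percent (log axis) with exact 95% intervals. On the left the DF libraries of day 7 sit between 6.14 and 15.4, and all other libraries lie between 129 and 496.

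The relative spread of miR-335 between replicates was 20.8% of the mean in SF at day 3, 16.9% in DF at day 3, 32.8% in SF at day 7 and 56.1% in DF at day 7. The wide relative spread in DF at day 7 came with the smallest counts. The exact 95% Poisson interval of 7 reads was 2.81 to 14.4 and that of 9 reads was 4.12 to 17.1, which overlap before the different depths of these libraries are taken into account. Had the DF libraries of day 7 held miR-335 at the mean level of DF at day 3, they would have shown 175.7, 90.3 and 167 reads in replicates 1, 2 and 3. At the mean level of SF at day 7 they would have shown 418, 215 and 398 reads. The reads counted were thus far below those that this depth would have given at either level.

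As a share of the reads of its library, miR-335 made up 0.135%, 0.0867% and 0.124% in SF at day 3 and 0.0564%, 0.0713% and 0.0553% in DF at day 3. In SF at day 7 it made up 0.0933%, 0.118% and 0.154%. In DF at day 7 its share was 0.00227% (exact Clopper-Pearson 95% interval 0.000913% to 0.00468%), 0.00561% (0.00257% to 0.0106%) and 0.00214% (0.000862% to 0.00442%). These intervals cover counting error only, and the lowest share in the other libraries was 0.0553%. Ranked by reads within its library, miR-335 stood at place 59, 71 and 62 in SF at day 3, at 79, 76 and 92 in DF at day 3, and at 69, 64 and 48 in SF at day 7. In DF at day 7 it stood at place 202, 169 and 200 of the 333, 293 and 328 miRNAs with a read. miR-335 was thus among the 100 miRNAs with the most reads in 9 libraries and well outside them in the other 3.

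The first question of the design was how SF and DF differ at each day. At day 3 the mean of miR-335 was 2.03-fold higher in SF than in DF, and the lowest SF library was 1.32-fold above the highest DF library. The fitted log2 fold change, from a negative binomial model over the 6 libraries of the comparison, was 0.97 with a standard error of 0.18. The median over all 335 miRNAs tested was -0.04. Ordered from the most raised in SF to the most lowered, miR-335 was at place 38, and its neighbours in that order, miR-2339 and miR-223, had only 1.67 and 0.833 reads per library. Among the 183 miRNAs with a mean of at least 10 reads, 13 had a larger log2 fold change in size. A separation of the groups as complete as that of miR-335 was seen for 93 of the 335 miRNAs tested (27.8%).

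At day 7 the mean of miR-335 was 39.4-fold higher in SF than in DF, and the lowest SF library was 16.8-fold above the highest DF library. The fitted log2 fold change was 5.46 with a standard error of 0.44, against a median of -0.05 over the 350 miRNAs tested. It was the second in order from the top. The miRNA above it, miR-2332, had a normalized count of 8.65 ± 9.88 (SD, n = 3) in SF and no read in DF, and the miRNA below it, miR-409a, had 3.61 ± 1.59 (SD, n = 3) in SF and no read in DF. Among the 188 miRNAs with a mean of at least 10 reads only miR-184 had a larger log2 fold change in size, in the opposite direction. Groups that did not overlap were frequent at day 7, at 160 of 350 miRNAs (45.7%), so the separation of miR-335 was common and its size was not.

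**Figure D2:**
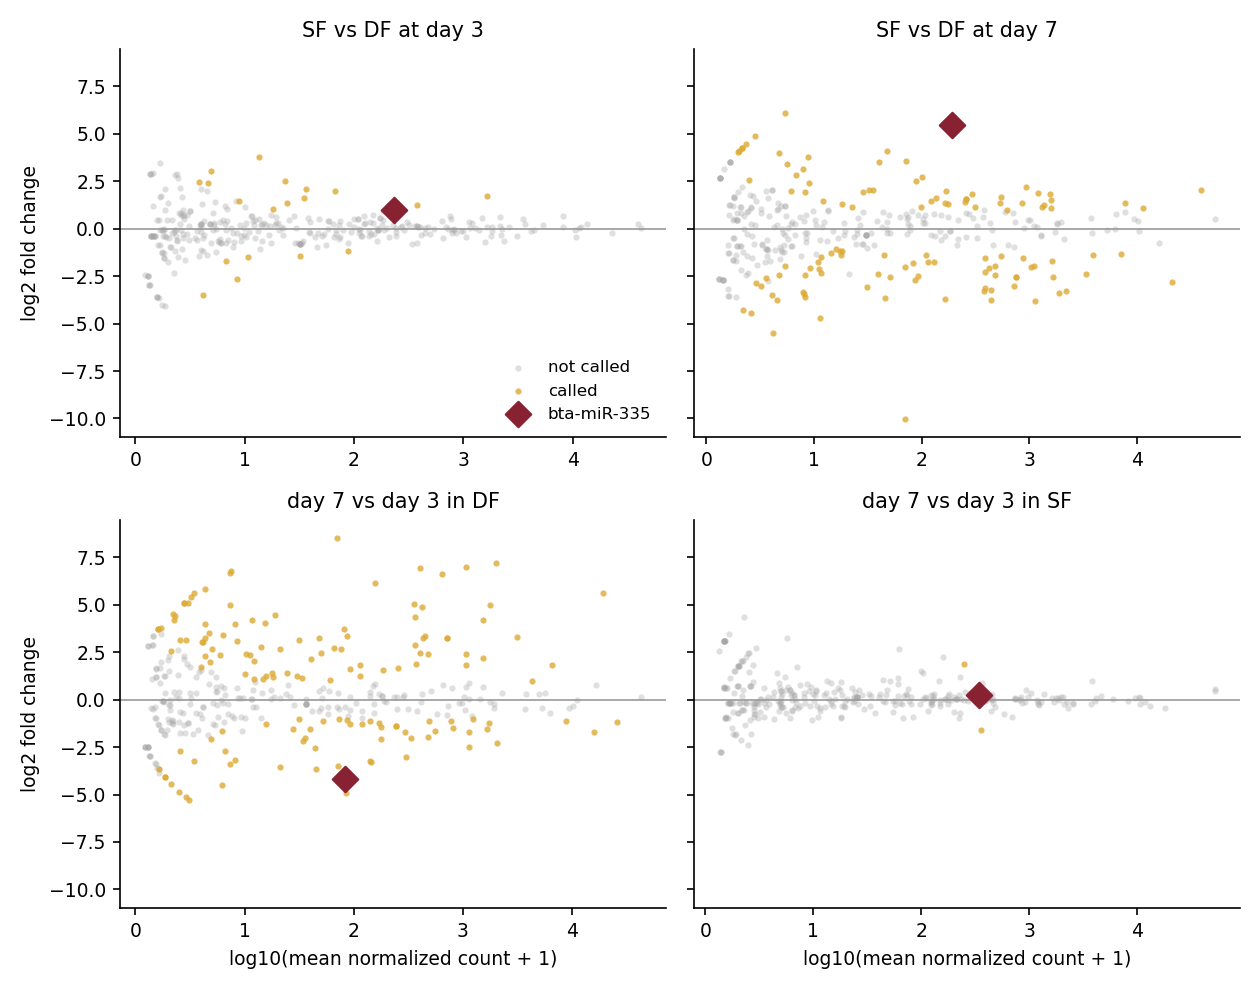
Fitted log2 fold change of every tested miRNA (vertical axis) against log10(mean normalized count + 1) of the 6 libraries (horizontal axis) in the 4 comparisons, with called miRNAs in yellow, others in grey and miR-335 as a diamond. miR-335 lies at 0.97 and 5.46 for SF against DF at day 3 and day 7, at -4.18 for day 7 against day 3 in DF and at 0.25 in SF.

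The next question was how each follicle class, defined by the size limits of its day, differed between day 3 and day 7. In DF the mean of miR-335 was 16.5-fold higher at day 3 than at day 7, with the lowest day 3 library 8.42-fold above the highest day 7 library. The fitted log2 fold change of day 7 against day 3 was -4.18 with a standard error of 0.36, against a median of 0.05 over 360 miRNAs. It was the seventh lowest value. The next lower and the next higher miRNA in that order, miR-2446 and miR-30b-3p, had no read in DF at day 7 and only 2.26 ± 1.99 and 1.76 ± 0.894 normalized counts (SD, n = 3) at day 3. Among the 192 miRNAs with a mean of at least 10 reads, 14 had a larger change in size. Day 3 and day 7 did not overlap for 180 of the 360 miRNAs (50.0%).

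In SF the mean of miR-335 was 1.17-fold higher at day 7 than at day 3 and the libraries overlapped. The fitted log2 fold change was 0.25 with a standard error of 0.24, and 73 of the 177 miRNAs with a mean of at least 10 reads had a larger one in size. Without SF day 7 replicate 3, which had the highest count, it was -0.01, so its sign rested on that library. Groups that did not overlap were found for 47 of 337 miRNAs (13.9%).

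The 4 comparisons share libraries, so they are not separate observations. Set side by side, the level of miR-335 in SF stayed within 239 to 496 normalized counts on both days, and the level in DF went from 129 to 181 at day 3 to 6.14 to 15.4 at day 7. The term for the difference between both SF to DF contrasts, fitted over the 12 libraries, was 4.39 on the log2 scale with a standard error of 0.46. It was at place 14 of 378 miRNAs from the top, and 7 of the 186 with a mean of at least 10 reads had a larger one in size.

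The names of miRNA genes were then matched to the RefSeq annotation of the bovine assembly ARS-UCD2.0, where 752 of 766 hairpin names were found. The counts were made on an earlier assembly, so only names and the order of genes were used. The mir-335 hairpin lay within the span of MEST on chromosome 4, and the nearest protein-coding genes on either side were CEP41 and COPG2. The mRNA of MEST was not measured in these libraries. Of the 29 other mature miRNAs with a hairpin on chromosome 4, 18 were detected in at least 1 group, and 13 of these had hairpins on that chromosome alone. The 13 with a hairpin within 10 Mb of mir-335 were, in order along the chromosome, miR-592, miR-129, miR-129-5p, miR-2422, miR-1843, miR-182, miR-96 and miR-183 on one side, and miR-29a, miR-29b, miR-320b, miR-2423 and miR-490 on the other. miR-182, miR-96 and miR-183 come from 1 cluster known from sensory organs, and miR-29 is known to repress collagens and DNA methyltransferases.

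Of these neighbours, miR-592, whose hairpin lies in the glutamate receptor gene GRM8, shared with miR-335 its low level in DF at day 7. At day 3, miR-592 had normalized counts of 16.5, 20.7 and 31.3 in SF and of 43.9, 31.3 and 36.1 in DF. At day 7 it had 9.14, 14.5 and 11.0 in SF and 4.38, 1.71 and 2.77 in DF, the DF values from only 5, 1 and 3 raw reads. In SF its log2 fold change from day 3 to day 7 was -0.95 with a standard error of 0.42 and was not called (edgeR quasi-likelihood test, adjusted p = 0.447). That of miR-335 was 0.25. Like miR-335, miR-592 was lowest in all 3 DF libraries of day 7, but at day 3 its highest counts were in DF. Its log2 fold change at day 7 was 1.92 with a standard error of 0.54 (edgeR quasi-likelihood test, Benjamini-Hochberg adjusted p = 0.0217), and from day 3 to day 7 in DF it was -3.54 with a standard error of 0.45 (adjusted p = 1.93e-05).

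miR-29a, the nearest detected neighbour on its side, was opposite to miR-335 at day 7 and between days in DF, but not at day 3. At day 3 its normalized counts were 197, 244 and 210 in SF and 130, 153 and 171 in DF. At day 7 they were 163, 382 and 310 in SF and 764, 735 and 908 in DF. At day 3 all SF libraries lay above all DF libraries, as for miR-335, with a log2 fold change of 0.48 that was under the size required for a call. The DF libraries of day 7 were highest for miR-29a and lowest for miR-335. The log2 fold change of miR-29a was -1.42 with a standard error of 0.31 at day 7 (edgeR quasi-likelihood test, adjusted p = 0.00685) and 2.39 with a standard error of 0.22 from day 3 to day 7 in DF (adjusted p = 8.20e-07). miR-29b, with 12 raw reads in DF at day 3 and 50 at day 7, was also called lower in SF at day 7, at -2.15 with a standard error of 0.49 (adjusted p = 0.00824). It has a second hairpin on another chromosome, so its reads cannot be assigned to the neighbourhood of mir-335.

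**Figure D3:**
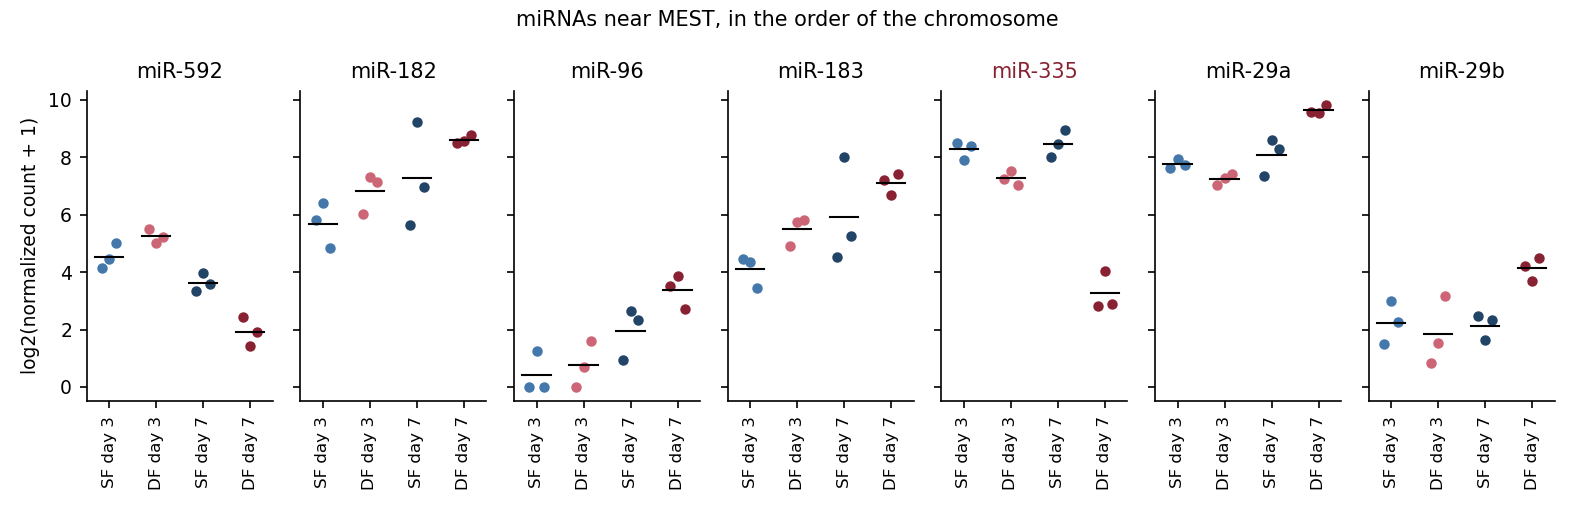
The level as log2(normalized count + 1) of miR-335 and of 6 miRNAs encoded near it on chromosome 4, in chromosome order, with points for the 12 libraries and lines for the mean of each of the 4 groups. miR-335 and miR-592 are lowest in DF at day 7, where miR-29a is highest, at 735 to 908 normalized counts.

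Over the whole of chromosome 4, a miRNA was called with a log2 fold change of at least 1 in size, a p of at most 0.05 and a Benjamini-Hochberg adjusted p of at most 10% in edgeR. At day 3, 2 of the 15 tested were called, miR-182 (log2 fold change -1.16, adjusted p = 0.0101) and miR-183 (-1.45, adjusted p = 0.00190), both lower in SF, where miR-335 was higher. Of all miRNAs tested at day 3, 5.67% were called and 1.79% were called lower in SF. At day 7, 3 of 17 were called (miR-592, miR-29a and miR-29b) against 33.4% of all miRNAs. With the replicate number as a block the count at day 7 was 6, adding miR-182, miR-183 and miR-96, and it was 5 without SF day 7 replicate 2 and 5 without DF day 7 replicate 3. SF day 7 replicate 2 stood apart for this cluster, with 604 normalized counts of miR-182 where the other SF libraries of day 7 had 48.4 and 123, while its miR-335 lay between theirs.

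From day 3 to day 7 in DF, 9 of 18 miRNAs of chromosome 4 were called, against 40.3% of all miRNAs. Of these, 8 were called higher at day 7, where 24.4% of all miRNAs were, and miR-592 was called lower, while miR-335 went down. The 8 were miR-182, miR-183, miR-96, miR-29a, miR-29b, miR-2419-5p and the entries miR-129 and miR-129-5p. The last of these have the same counts, so they are 1 signal listed under both names, and like miR-29b they have a second hairpin on another chromosome. In SF none of 16 was called, against 0.593% of all miRNAs. In that comparison 5 of the 16 had an unadjusted p under 0.05 in edgeR, and DESeq2 also called 0. miR-182 and miR-183 had edgeR adjusted p values of 0.151 and 0.144 there, and both were called without SF day 7 replicate 1, without SF day 7 replicate 3 and with the replicate block, which gave 2 calls each time. The median log2 fold change of the chromosome 4 miRNAs was -0.74 at day 3, -0.49 at day 7, 0.64 in DF and 0.53 in SF, beside -0.04, -0.05, 0.05 and 0.03 over all miRNAs tested.

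Since MEST is imprinted, miRNAs of the other known imprinted loci were listed as well, mainly the large cluster of the DLK1 and MEG3 domain together with miR-483 of IGF2 and miR-296 of the GNAS domain. Of 71 names, 58 were in the files and only 14 to 18 could be tested in a comparison. At day 3 edgeR and DESeq2 called 0 of 18, and 1 had an unadjusted p under 0.05 in edgeR. This was miR-127 of the DLK1 and MEG3 domain, which was higher in SF like miR-335, with normalized counts of 182 to 203 in SF and 93.2 to 134 in DF, but its log2 fold change of 0.74 (standard error 0.18, edgeR adjusted p = 0.00807) was under the size required for a call. At day 7, 4 of 14 were called, and the share over all miRNAs was 33.4%. Of these, miR-296 had 111 to 154 normalized counts in SF and 39.2 to 76.6 in DF at day 7, with a log2 fold change of 1.15 and a standard error of 0.29 (edgeR quasi-likelihood test, adjusted p = 0.0134). miR-409a had 4, 5 and 2 raw reads in SF and none in DF, and miR-665 had 6 reads over the 3 SF libraries and none in DF. miR-483 was higher in DF, with 30, 0 and 37 raw reads there against 1, 1 and 0 in SF, so it was absent from the reads of 1 of the 3 DF libraries. With the replicate block the call of miR-665 was lost, and DESeq2 called 2 of the 4, without miR-665 and miR-409a. From day 3 to day 7 in DF, 2 of 16 were called, miR-483 upward and miR-409a downward, with 4 called without DF day 3 replicate 1 and 1 without DF day 3 replicate 2, DF day 3 replicate 3 or DF day 7 replicate 1. In SF 0 of 16 were called by edgeR or DESeq2, with 0 at an unadjusted p under 0.05. The median log2 fold change of the imprinted-locus miRNAs was -0.07 at day 3, 0.87 at day 7, -0.31 in DF and 0.21 in SF, beside medians of -0.04, -0.05, 0.05 and 0.03 over all miRNAs tested.

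The interaction term asked whether a miRNA of these lists differed between SF and DF by another amount at day 7 than at day 3, as miR-335 did. It was called for 3 of 18 miRNAs of chromosome 4 and for 2 of 18 of the imprinted loci, against 26.5% of all miRNAs. The 3 of chromosome 4 were miR-592 in the direction of miR-335, at 2.53 with a standard error of 0.58 (edgeR quasi-likelihood test, adjusted p = 0.00348), and miR-29a and miR-29b against it. Of the imprinted loci, miR-296 and miR-409a moved in the direction of miR-335, but the count was 0 without SF day 7 replicate 1 or without DF day 7 replicate 2.

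The miRNAs most like miR-335 were then looked for by Pearson's r of log2(normalized count + 1) over the 12 libraries, among 185 miRNAs with a mean of at least 10 reads. The libraries share their groups, so r describes these data only and carries no p. The 8 highest were miR-30c (r = 0.96), miR-339a and miR-339b (0.95, with the same counts in every library), miR-10b (0.94), miR-423-3p (0.94), miR-30e-5p (0.94), miR-497 (0.93) and miR-224 (0.92). The median r over the 185 was -0.009, and 16 miRNAs had r above 0.9.

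All 8 were lowest in DF at day 7, but none fell as far as miR-335. miR-30c, the most alike, had means of 1355 ± 124, 1051 ± 85.0, 1217 ± 81.2 and 496 ± 8.39 normalized counts (SD, n = 3) in SF at day 3, DF at day 3, SF at day 7 and DF at day 7. miR-224, a granulosa cell miRNA known to respond to TGF-beta signalling, came closest in size, with means of 167 ± 25.8, 130 ± 23.5, 130 ± 40.3 and 11.3 ± 4.43 (SD, n = 3) in the same order. From day 3 to day 7 in DF the fitted log2 change was -4.18 for miR-335, -3.48 for miR-224, -2.07 for miR-497 and between -1.55 and -1.10 for the other 6.

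The likeness rested on the DF libraries of day 7. Over the other 9 libraries r with miR-335 ran from -0.28 for miR-497 to 0.79 for miR-10b, and none of the 8 was among the 8 highest there. By Spearman's rho over the 12 libraries, which weighs the low libraries less, the 8 had values of 0.43 to 0.89 and 1 of them was among the 8 highest.

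The 4 miRNAs least like miR-335 were miR-22-3p (r = -0.97), miR-455-3p (-0.93), miR-184 (-0.92) and miR-103 (-0.92). miR-22-3p, known to target the estrogen receptor ESR1 mRNA, had means of 1885 ± 107 (SF) and 2846 ± 357 (DF) at day 3, and of 2063 ± 241 (SF) and 5760 ± 536 (DF) at day 7 (normalized counts, SD, n = 3). It was lower in SF than in DF on both days, opposite to miR-335, and kept r = -0.92 over the 9 libraries without DF at day 7. miR-184 had 138 ± 36.1 normalized counts (SD, n = 3) in DF at day 7 and at most 3.66 in any other library.

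**Figure D4:**
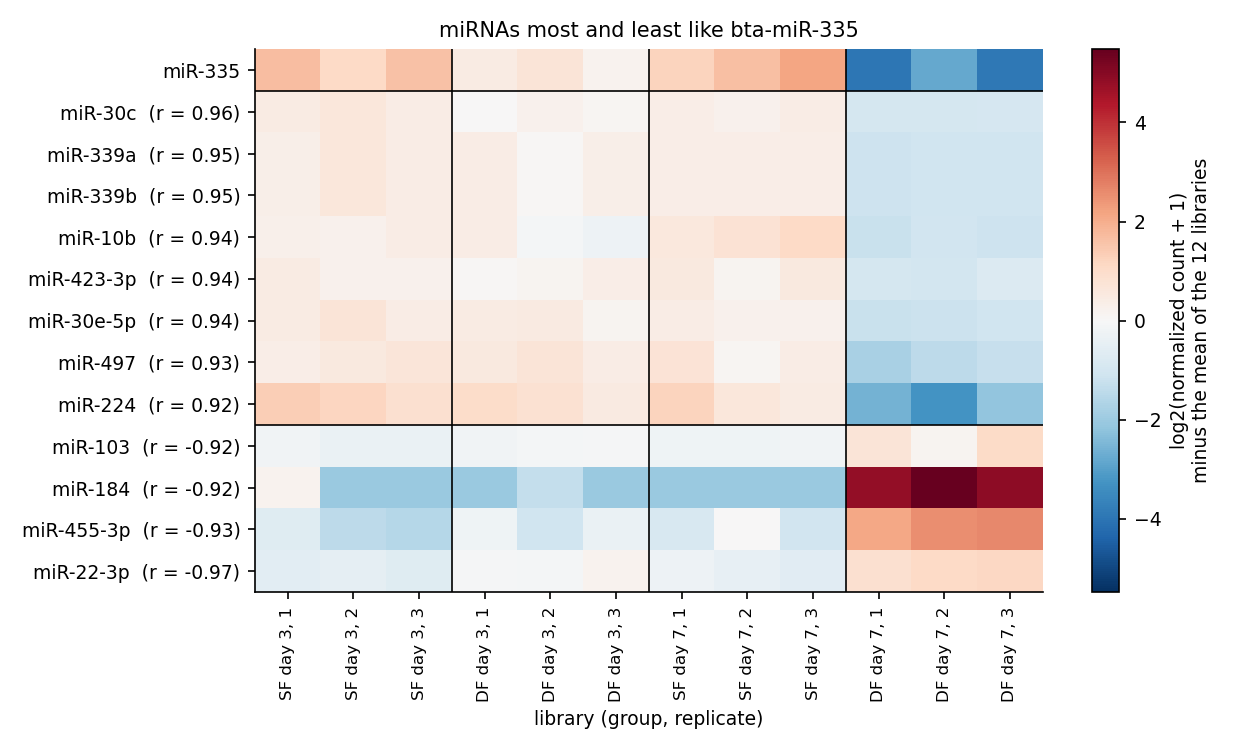
Heat map of log2(normalized count + 1) minus the mean over the 12 libraries (colour, red above and blue below) for miR-335, the 8 miRNAs most like it and the 4 least like it (rows, with r), with libraries in columns by group. The 3 DF libraries of day 7 are the ones that stand apart, with miR-335 and miR-224 the most lowered and miR-184 the most raised.

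Follicular fluid can carry other cells, so marker miRNAs were summed in each library as normalized counts. In bulk libraries fewer granulosa cells and less of a miRNA per granulosa cell cannot be told apart. The 4 granulosa cell miRNAs (miR-202, miR-224, miR-383 and miR-378) summed to 3415 to 3901 in SF at day 3, 4183 to 4592 in DF at day 3, 3381 to 3802 in SF at day 7 and 2029 to 2444 in DF at day 7. miR-202, which is restricted to gonads, fell from a mean of 3409 ± 310 to 715 ± 317 (SD, n = 3) in DF between the 2 days. miR-383 was near the counting limit, with only 8 raw reads in SF at day 3, 6 in DF at day 3 and 7 in SF at day 7. It was at 0 in all 3 DF libraries of day 7. miR-224 was also lowest there, as given above. miR-378, which also has a hairpin on chromosome 4, had its highest mean there instead. It had 797 ± 97.7 in DF at day 3 and 1482 ± 534 in DF at day 7 (SD, n = 3). Its log2 fold change of 0.88 (edgeR adjusted p = 0.0142) was under the size required for a call. It was called in 3 of 17 alternatives, namely summed precursor entries, all entries as listed and without DF day 7 replicate 3. The lowest sums of this list were in the 3 libraries with the lowest miR-335, and the highest were in DF at day 3. At day 7, edgeR called 3 of the 4 higher in SF (15.1% of all miRNAs), of which miR-383 was not called with the replicate block or by DESeq2.

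The leukocyte markers (miR-142-5p, miR-142-3p, miR-150 and miR-223) summed to 110 to 226 in SF at day 3, 118 to 166 in DF at day 3 and 189 to 723 in SF at day 7. In DF at day 7 they summed to 803, 3189 and 8856 from the lowest to the highest library. miR-142-3p was at 0 in both groups of day 3. The stromal markers (miR-143, miR-145, miR-199a-3p, miR-199a-5p and miR-214) summed to 2510 to 5515 in the other 9 libraries and to 8741 to 16997 in DF at day 7. From day 3 to day 7 in DF, all 4 leukocyte and all 5 stromal markers were called higher at day 7, where 24.4% of all miRNAs were.

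Within DF at day 7, the library with the lowest leukocyte sum, 803 in replicate 3, had 6.46 normalized counts of miR-335. SF day 7 replicate 2, with a leukocyte sum of 723, had 347. The DF library with the highest leukocyte sum, 8856 in replicate 2, had 15.4. This came from 9 raw reads against 7 in each of the other libraries of its group, with overlapping intervals of counting error. The stromal sums of these libraries were 16997 in DF replicate 3, 8741 in DF replicate 2 and 5462 in SF replicate 2, so they differed in stromal markers as well. The part of the leukocyte, stromal and granulosa markers in the levels of miR-335 was not tested.

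Erythrocyte markers (miR-451, miR-486 and miR-144) summed to 323 to 1684 in SF at day 3, 755 to 1114 in DF at day 3, 449 to 528 in SF at day 7 and 829 to 2381 in DF at day 7. The endothelial markers miR-126-5p and miR-126-3p summed to 105 to 134 in SF and 63.1 to 104 in DF at day 3. At day 7 they summed to 93.2 to 226 in SF and 133 to 164 in DF. From day 3 to day 7 in DF, miR-126-3p was called higher by edgeR, as were 24.4% of all miRNAs, and miR-126-5p was not called. The call of miR-126-3p was kept in 13 of 17 alternatives. The 6 epithelial markers summed to at most 22.0 in any library, with miR-205 at 0 throughout. At day 7 bta-miR-451 and bta-miR-486 were both called lower in SF, with edgeR log2 fold changes of -1.76 and -1.56 (adjusted p = 0.00547 and 0.00890), while miR-144 had too few reads to be tested there. Of the 350 miRNAs tested at day 7, 117 (33.4%) were called in either direction. Of these, 53 (15.1% of all tested) were higher in SF and the rest were lower in SF. The part of these markers in the levels of miR-335 was not tested either.

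**Figure D5:**
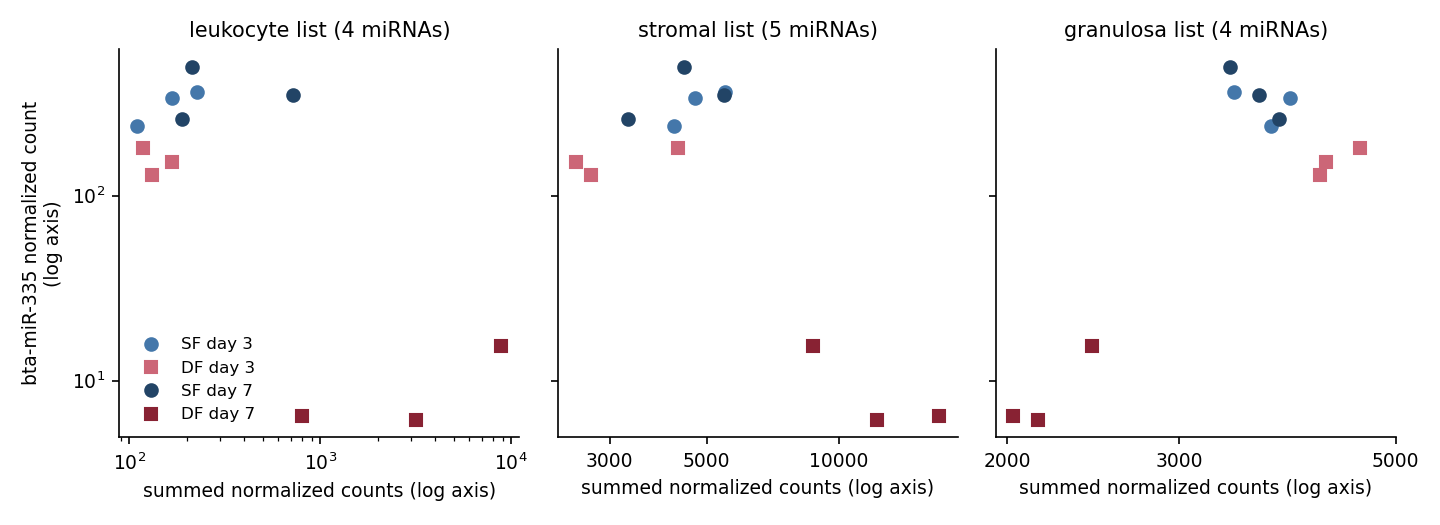
Normalized counts of miR-335 (log axis) against the summed normalized counts (log axis) of leukocyte, stromal and granulosa markers in the 12 libraries, coloured by group. The DF libraries of day 7 have stromal sums of 8741 to 16997 and granulosa sums of 2029 to 2444, and their leukocyte sums of 803 to 8856 begin near that of 1 SF library of day 7 at 723.

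Whichever single library was left out, both SF means of miR-335 stayed above that of DF at day 3, and DF at day 7 stayed lowest. The order of the SF groups was not kept. Without SF day 7 replicate 3, the mean of SF at day 7 was 303, below the 313 of SF at day 3. The mean was 288 to 349 in SF at day 3, 141 to 166 in DF at day 3, 303 to 422 in SF at day 7 and 6.30 to 10.9 in DF at day 7. SF against DF then gave a log2 fold change of 0.85 to 1.09 at day 3 and 5.19 to 5.92 at day 7, and the change from day 3 to day 7 in DF was -4.62 to -3.91.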

How the data were processed

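Granulosa cell small RNA was sequenced in 12 libraries, 3 biological replicates for each of SF and DF on each day, with groups and replicate numbers taken from the labels. Base calling with CASAVA 1.8.0 and adapter trimming with cutadapt are named in the submitters' processing notes. Per the methods of the study, reads were aligned to the bovine genome and counted on known bovine miRNAs with miRDeep2. The authors deposited raw read counts for each mature miRNA and precursor, with no normalization. A read matching several precursors is counted at each, so the entry with the most reads was used for each mature name.

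miR-335 and the lists were chosen with earlier results of these data known. Counts were analysed with edgeR 4.0.16 in R 4.3.3 (median-of-ratios factors, quasi-likelihood test, two-sided, prior count 0.125, Benjamini-Hochberg adjustment over all miRNAs tested), each comparison on its own 6 libraries and the interaction on all 12. The standard errors given are the size of the log2 fold change over the square root of the F statistic of the quasi-likelihood test. For miR-335 in SF against DF, the standard errors of DESeq2 were 0.22 at day 3 and 0.49 at day 7. Testing was limited to miRNAs with 1 or more reads in 2 or more replicates of a group. The step was tested on simulated counts with known fold changes. The miRNAs named are miR-335, the 8 most and 4 least like it, those of chromosome 4 within 10 Mb, those of chromosome 4 or imprinted loci that were called, and cell type markers. miR-127, miR-2332, miR-2339, miR-2446, miR-30b-3p, miR-199a-3p, miR-199c, miR-92a, miR-181a and miR-221 were named after their values were seen. miRNAs with hairpins that share reads are uncertain.

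Alternatives were DESeq2 1.42.0, TMM or library-size scaling, no or a stricter filter, all libraries in 1 fit, other uses of the precursor entries, a prior count of 2, an FDR of 5%, a replicate block and leaving out each library. Same-numbered libraries deviated together at day 7, with correlations of 0.157 to 0.224, all above 0.1, so the numbers may pair libraries there. This comes from the data, since the labels tie no number to an animal. The replicate block was run only as an alternative, and the tests and calls given as main results are unpaired, also at day 7. The correlations were -0.0905 to 0.0228 at day 3, -0.149 to 0.00735 in DF and -0.105 to 0.0895 in SF. No seed-family analysis was made and no sequence is shown, since no miRNA sequence table was used here.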

Additional observations from a re-analysis of the deposited data

Results flagged for a closer look

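Groups of 3 libraries are too small for a check of single libraries. 5 miRNAs of the chromosome 4 and imprinted-locus lists had a difference between SF and DF that differed between day 3 and day 7 by the interaction term of edgeR over the 12 libraries, which was called for 26.5% of all miRNAs. Among the cell type markers it was called for 2 of 4 granulosa, 2 of 4 leukocyte, 5 of 5 stromal and 1 of 3 erythrocyte miRNAs. miR-592 had 2.53 (standard error 0.58, adjusted p = 0.00348), from log2 fold changes of -0.76 at day 3 and 1.92 at day 7, and was called in 22 of 22 alternatives. miR-29a had -2.02 (standard error 0.36, adjusted p = 0.000490), from 0.48 at day 3 and -1.42 at day 7, and was called in 22 of 22. miR-296 had 1.08 (standard error 0.38, adjusted p = 0.0478) and was called in 19 of 22, being lost without DF day 7 replicate 2, SF day 3 replicate 2 or SF day 7 replicate 1. miR-29b had -2.50 (standard error 1.01, adjusted p = 0.0858) and was called in 12 of 21 alternatives that tested it. miR-409a had 4.96 (standard error 1.90, adjusted p = 0.0742), called in 11 of 21, and this value depends on the prior count because DF at day 7 had no read.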

How the results depend on the processing

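The direction of miR-335 held under every alternative run for SF against DF at both days, for DF between days and for the interaction. The log2 fold change under alternatives other than leaving out libraries was 0.92 to 1.02 at day 3, 5.17 to 5.62 at day 7, -4.33 to -3.93 in DF and 0.07 to 0.29 in SF. With the replicate block it was 0.96, 5.44, -4.16 and 0.22, and 4.37 for the interaction. Leaving out 1 library gave 0.85 to 1.09, 5.19 to 5.92, -4.62 to -3.91, -0.01 to 0.43 and, for the interaction, 4.11 to 4.85.

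Counts of called chromosome 4 miRNAs moved by over 1.5 times as follows. At day 3 the fit of all 12 libraries gave 0. At day 7 the replicate block gave 6. In DF a filter of at least 10 reads in 3 libraries gave 5. In SF no filter, all entries as listed and the replicate block each gave 2. Leaving out 1 library gave 1 to 3 at day 3 (1 without DF day 3 replicate 2), 3 to 5 at day 7, 8 to 11 in DF, 0 to 2 in SF and 2 to 4 for the interaction. Counts for imprinted loci at day 7 were 2 by DESeq2 and 1 with the stricter filter, in DF 0 with that filter, and for the interaction 1 with that filter and 1 at an FDR of 5%. Leaving out 1 library gave 3 to 6, 1 to 4 and 0 to 3, with 4 without DF day 3 replicate 1 and 1 without DF day 3 replicate 2 or 3 or DF day 7 replicate 1 in DF. For the interaction it was 0 without SF day 7 replicate 1 or DF day 7 replicate 2, 1 without any SF library of day 3, SF day 7 replicate 2, DF day 3 replicate 2 or 3 or DF day 7 replicate 1 or 3, and 2 or 3 otherwise. The block changed no other count by that much. The stricter filter tests fewer miRNAs, and the cause of the other moves was not tested. Of the 8 miRNAs most like miR-335, 1 remained by Spearman's rho and 0 without DF at day 7. Depth limits miR-335 in DF at day 7, where 7 to 9 reads were counted.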

Other observations

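Over the 9 libraries other than DF at day 7, the miRNAs most like miR-335 by Pearson's r of log2(normalized count + 1) were miR-92a (0.96), miR-199c and miR-199a-3p (0.91 each), miR-181a (0.90) and miR-221 (0.88). These were picked after their values were seen and carry no test. miR-199c and miR-199a-3p had the same mean in every group but SF at day 7, where they had 210.9 and 210.6. They are therefore close to 1 signal listed under both names. miR-199a-3p, a miRNA abundant in mesenchymal cells, had means of 206 ± 32.9 (SF) and 136 ± 16.4 (DF) at day 3, and of 211 ± 31.8 (SF) at day 7 (normalized counts, SD, n = 3), the order of miR-335 in these groups. In DF at day 7 it had 1296 ± 66.4 while miR-335 had 9.32 ± 5.23, and over the 12 libraries its r was -0.89. miR-181a and miR-221 also had their highest means in DF at day 7, at 5679 ± 998 and 2107 ± 956, with r of -0.84 and -0.76 over the 12 libraries. miR-92a, a member of the miR-17 to 92 family, alone of these stayed like miR-335, with means of 10057 ± 770, 6067 ± 344, 10951 ± 1979 and 4551 ± 899 in SF at day 3, DF at day 3, SF at day 7 and DF at day 7, and an r of 0.86 over the 12 libraries.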
